A study of Mus musculus with 4 samples.

Results

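Microglia and macrophages were examined among tdTomato-positive cells sorted from the cerebellum of mouse embryos. Counts here are UMIs (unique molecular identifiers, which mark captured transcripts). Barcodes were kept if they held 500 genes or more and no more than 10% of their UMIs were mitochondrial. Members were chosen by their raw UMIs of C1qa, C1qb, C1qc, Csf1r and Cx3cr1, which had to sum to 3 or more. The rule kept 519 of 24856 barcodes, with 64 and 286 members in En1/2 CKO replicates 1 and 2 and 104 and 65 in control replicates 1 and 2. Because these 5 genes chose the cells, their levels are a description and were not tested.

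Both genotypes were taken at E15.5. En1/2 CKO embryos were Ptf1aCre/+; En1lox/lox, En2lox/lox; R26LSL-tdT/+, and control embryos were Ptf1aCre/+; R26LSL-tdT/+, so that Cre and reporter were common to both. Cre is driven by Ptf1a, a transcription factor of cerebellar GABAergic progenitors, and removal of the Engrailed transcription factor genes En1 and En2 is expected only where Cre acts. Each library was made from pooled embryos, with the pool size not stated in the labels, so p-values measure the spread between pools, which may be partly technical.

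Microglia are the resident macrophages of the brain parenchyma. They descend from yolk sac progenitors that enter the neural tube early and do not belong to the Ptf1a lineage. They depend on Csf1r, the receptor for CSF1 and IL-34, and use C1q, the initiating complex of complement, purinergic receptors and Trem2 to survey and engulf cells and debris. Border macrophages of the meninges, perivascular spaces and choroid plexus share C1q and Csf1r and are known by Mrc1, Pf4, Lyve1 and F13a1. A subset of microglia in developing fibre tracts is known for Spp1 and Igf1.

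To show what lies in front of genes that lead this population, 4 promoters are given, each from 250 bases before to 50 bases after the annotated start in RefSeq's GRCm38.p6, read 5′ to 3′ on the gene's strand. Capitals mark GAGGAA or its reverse complement TTCCTC, the core letters of sites of PU.1, the myeloid factor encoded by Spi1. C1qb (chr4:136886151-136886450, minus strand) and C1qc (chr4:136892865-136893164, minus strand) lie in the C1q cluster, Trem2 is at chr17:48346151-48346450 on the plus strand and Siglech at chr7:55767934-55768233 on the plus strand.
C1qb: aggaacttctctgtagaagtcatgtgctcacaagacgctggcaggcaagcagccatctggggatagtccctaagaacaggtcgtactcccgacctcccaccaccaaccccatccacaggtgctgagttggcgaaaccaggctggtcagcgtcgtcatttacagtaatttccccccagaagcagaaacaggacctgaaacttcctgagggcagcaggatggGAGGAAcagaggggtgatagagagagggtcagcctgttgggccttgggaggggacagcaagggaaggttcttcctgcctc
C1qc: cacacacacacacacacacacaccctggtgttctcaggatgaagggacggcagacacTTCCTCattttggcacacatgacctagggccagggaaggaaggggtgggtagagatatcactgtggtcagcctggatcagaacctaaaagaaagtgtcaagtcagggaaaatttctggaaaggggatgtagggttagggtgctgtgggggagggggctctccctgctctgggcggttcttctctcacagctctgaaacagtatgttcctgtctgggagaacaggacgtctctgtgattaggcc
Trem2: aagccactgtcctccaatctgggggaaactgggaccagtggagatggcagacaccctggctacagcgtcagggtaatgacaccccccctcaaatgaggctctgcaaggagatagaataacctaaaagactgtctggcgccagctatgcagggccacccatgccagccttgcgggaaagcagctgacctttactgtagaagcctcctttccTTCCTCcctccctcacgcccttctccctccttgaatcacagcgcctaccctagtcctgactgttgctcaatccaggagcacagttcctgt
Siglech: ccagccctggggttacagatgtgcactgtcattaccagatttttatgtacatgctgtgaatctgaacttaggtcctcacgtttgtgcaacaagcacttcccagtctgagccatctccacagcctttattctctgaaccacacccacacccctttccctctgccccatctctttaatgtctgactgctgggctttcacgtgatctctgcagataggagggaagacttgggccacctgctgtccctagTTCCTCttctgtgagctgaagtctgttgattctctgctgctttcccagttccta
The match began 30 bases before the start of C1qb, 193 before that of C1qc, 40 before that of Trem2 and 4 before that of Siglech. Of the 25 genes with the highest ratio of members to the other kept barcodes, 21 had a window in the table and 15 of these held the letters on either strand. A window with these letters was found for 31.3% of all 27025 genes listed. All 4 promoters shown hold a match, so they do not represent the 21, and the 25 include the genes of the rule. A match in so short a motif is a description of letters and not a binding site.

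The libraries held 20724086 and 21021428 UMIs for En1/2 CKO and 15470932 and 5305154 for control, of which members gave 297903 and 1056626 in En1/2 CKO and 379506 and 219130 in control. Median UMIs were 4535 and 2478 in En1/2 CKO members and 3279 and 3390 in control members, against 2341 and 1105 in the other kept En1/2 CKO barcodes and 1195 and 2406 in the other kept control barcodes. No member barcode was shared between libraries, whereas 1 to 22 kept barcodes were shared per pair of libraries. In control replicate 2 only 25.5% of barcodes passed the filter. There, 27 barcodes with 3 or more marker UMIs failed it, against 6 and 39 in En1/2 CKO replicates 1 and 2 and 12 in control replicate 1.

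En1/2 CKO replicate 2 stood apart. In it 117 of 286 members had only 3 to 9 marker UMIs, against 1 of 64 in En1/2 CKO replicate 1 and 14 of 104 and 2 of 65 in the controls. These 117 barcodes had a median of 1297 UMIs and 3254 CPM (counts per 1000000 member UMIs) over the 15 genes of a myeloid core list, against 11987 CPM in the 169 members of that library with 10 or more marker UMIs. Their neuronal genes summed to 5157 CPM against 1166 CPM, and their progenitor and glial genes to 9560 CPM against 1722 CPM. Just inside the threshold that library had 36 barcodes with 3 marker UMIs and 2072 CPM of the myeloid core, and just outside it 76 with 2 marker UMIs and 1892 CPM. Several results that may rest on these barcodes are therefore also given for members with 10 or more marker UMIs.

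**Figure D1:**
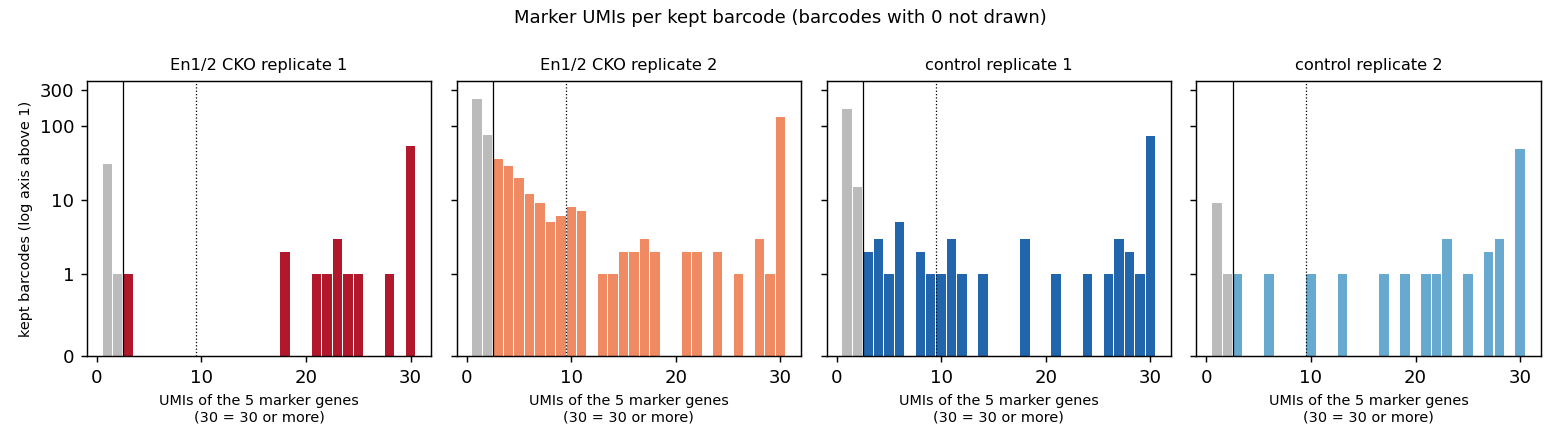
Number of kept barcodes (y axis, log scale above 1) by their UMIs over the 5 marker genes (x axis, the last bar holding 30 or more) in each library. Coloured bars are members, the solid line is the limit of 3 UMIs and the dotted line separates 9 from 10. The bars run on without a gap across the limit in En1/2 CKO replicate 2, with 76 barcodes at 2 UMIs and 36 at 3.

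Defining genes of microglia were present in every library. P2ry12, the ADP receptor of microglia, had 1437 and 1044 CPM in En1/2 CKO members and 1083 and 1086 CPM in control members. The genotypes overlapped, and outside the members P2ry12 did not exceed 2.88 CPM. A P2ry12 UMI was present in 93.8% and 64.7% of En1/2 CKO members and 80.8% and 83.1% of control members, against 0.135% and 0.606% of the other En1/2 CKO barcodes and 0.185% and 0.36% of the other control barcodes. Among members with 10 or more marker UMIs the shares were 95.2% and 85.8% in En1/2 CKO and 87.8% and 85.7% in control.

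The 16 genes of a microglia-enriched list were all detected in members and summed to 14448 and 11919 CPM in En1/2 CKO and 11315 and 13508 CPM in control. Fcrls, an Fc receptor-like gene, had 2192 and 1764 CPM in En1/2 CKO members and 1731 and 2017 CPM in control members. Sparc, a secreted matricellular protein, had 3065 and 2866 CPM in En1/2 CKO members and 2053 and 2081 CPM in control members, so both mutant libraries lay above both controls. Its log2 fold change was 0.48 (SE 0.27) and did not pass edgeR's test (adjusted p = 0.9996). Trem2, a lipid-sensing receptor that signals through Tyrobp, had 1437 and 1366 CPM in En1/2 CKO members and 1196 and 1337 CPM in control members. Tmem119, a membrane protein that marks mature microglia, was low at 131 and 148 CPM in En1/2 CKO members and 84.3 and 151 CPM in control members, with a UMI in 24% to 35.9% of members per library.

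The leading ratio over the other barcodes belonged to Siglech, a sialic acid binding lectin, with 299 and 214 CPM in En1/2 CKO members and 129 and 351 CPM in control members. Outside the members it was at 0 in 3 libraries and at 0.345 CPM in En1/2 CKO replicate 2. P2ry13, a second ADP receptor, Ly86, the secreted MD-1 partner of the RP105 receptor, Gpr34, a lysophosphatidylserine receptor, and Adgre1, the F4/80 antigen, followed apart from the rule's own genes. These ratios follow from how the cells were chosen and were not tested.

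Markers of other blood and vessel cells were mostly low, and neural genes were not absent. Of 15 monocyte and neutrophil genes, 11 were at 0 in all members, among them Ly6c2, S100a9 and Mpo. A count of 0 in 519 members, pooled over the 4 libraries, allows a share of up to 0.578% with a UMI. That limit covers counting only and is wider within a library, at 2.88% in control replicate 1 and 4.62% in control replicate 2. The list summed to 47 and 7.57 CPM in En1/2 CKO and 39.5 and 31.9 CPM in control. Of the 11 genes of antigen presentation, which include class I genes, 8 had UMIs in members. The dendritic cell genes Flt3 and Xcr1 and the class II gene H2-Aa were at 0, whereas Cd74 had 1 and 8 UMIs in En1/2 CKO members and 18 and 4 in control members. At 0 in all members were also Cpa3 and Ms4a2 of mast cells and Cd3e and Cd79a of lymphocytes, whereas Cd79b, a B cell receptor subunit, had 57.1 and 49.2 CPM in En1/2 CKO members and 31.6 and 41.1 CPM in control members. Of 15 vascular and meningeal genes 8 were at 0, and the list summed to 30.2 and 20.8 CPM in En1/2 CKO and 23.7 and 22.8 CPM in control. Neuronal genes summed to 594 and 1767 CPM in En1/2 CKO members and 1697 and 520 CPM in control members, against 6486 and 6956 CPM in the other En1/2 CKO barcodes and 9457 and 4966 CPM in the other control barcodes. Progenitor and glial genes summed to 594 and 2903 CPM in En1/2 CKO members and 1083 and 616 CPM in control members, with En1/2 CKO replicate 2 highest, against 9654 and 10676 CPM in the other En1/2 CKO barcodes and 5549 and 13108 CPM in the other control barcodes.

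**Figure D2:**
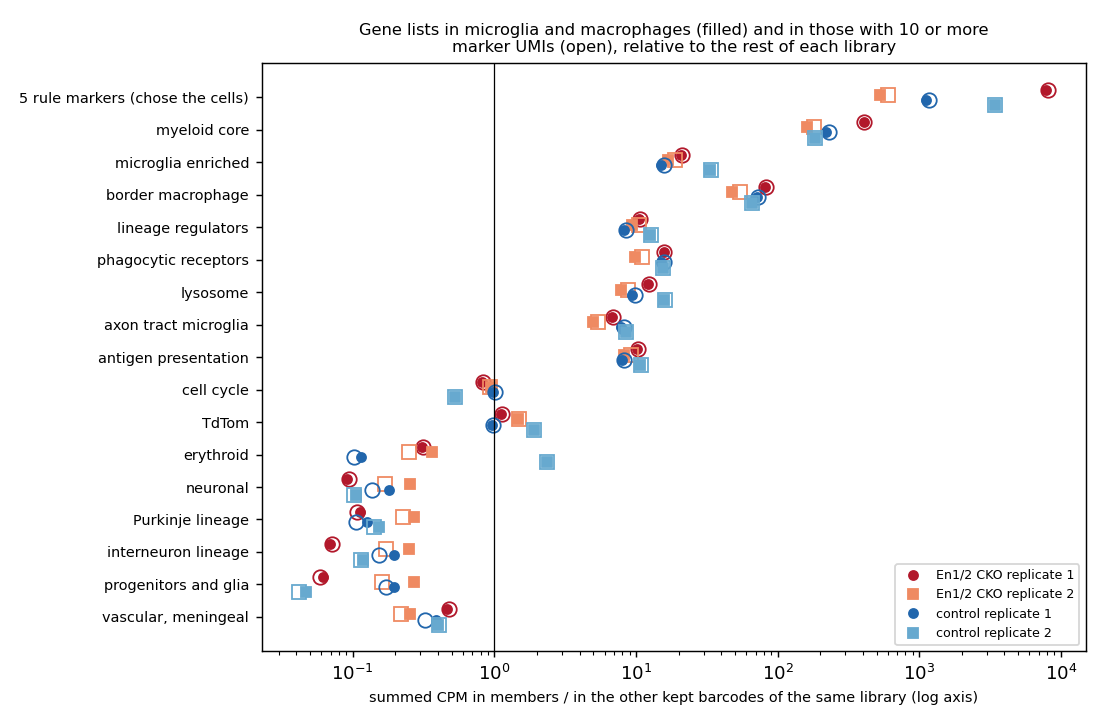
Summed CPM of each gene list in members divided by that in the other kept barcodes of the same library (x axis, log scale), for all members (filled) and for members with 10 or more marker UMIs (open). The myeloid core, microglia and border macrophage lists lie to the right of 1 and neuronal, progenitor and vascular lists to the left in all 4 libraries, and the progenitor value of En1/2 CKO replicate 2 moves left when only members with 10 or more marker UMIs are used.

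The fate reporter and the targeted genes were read next. TdTom had 547 and 850 CPM in En1/2 CKO members and 440 and 1196 CPM in control members, against 492 and 583 CPM in the other En1/2 CKO barcodes and 455 and 626 CPM in the other control barcodes. A TdTom UMI was found in 84.4% and 79.4% of En1/2 CKO members and 61.5% and 89.2% of control members, against 60.6% and 52.2% of the other En1/2 CKO barcodes and 42.8% and 67.8% of the other control barcodes. Members were deeper than the rest in every library by median UMIs, which bears on such shares. En2 had 3.36 and 4.73 CPM in En1/2 CKO members and 21.1 and 9.13 CPM in control members, from 1 and 5 UMIs in En1/2 CKO and 8 and 2 UMIs in control. En1 had 3.36 and 10.4 CPM in En1/2 CKO members and 7.91 and 4.56 CPM in control members. Both were far below the other barcodes, where En1 had 70.2 and 65.7 CPM in En1/2 CKO and 112 and 82.5 CPM in control, and 3′ counts outside a deleted part cannot check the deletion. Malat1, an abundant nuclear RNA, had 16854 and 16384 CPM in En1/2 CKO members and 23702 and 21992 CPM in control members, with both mutant libraries lower (log2 fold change -0.50, SE 0.21, not passing edgeR's test at adjusted p = 0.9996).

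Members made up 1.22% and 3.56% of kept barcodes in En1/2 CKO and 1% and 5.52% in control, with exact binomial 95% intervals of 0.943% to 1.56% and 3.16% to 3.98% in En1/2 CKO and 0.818% to 1.21% and 4.29% to 6.99% in control. The control values lay on either side of the mutant values. The mean difference, En1/2 CKO minus control, was -0.87 percentage points (exact permutation test over libraries, two-sided p = 1, the smallest possible being 0.33). Shares of a sorted population also depend on the sort and on the filter, and without any barcode filter the difference was 0.32 points. With 10 or more marker UMIs required of a member, the mean share was 1.65% in En1/2 CKO and 3.11% in control, a difference of -1.46 points (exact permutation p = 1).

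Spp1, which encodes osteopontin, split the members. It is on chromosome 5 (chr5:104435118-104441050, mm10) and had 2880 and 1906 CPM in En1/2 CKO members and 4530 and 3336 CPM in control members, with both mutant libraries below both controls. The log2 fold change was -0.75 (SE 0.31) and was not called by edgeR (adjusted p = 0.9996). No Spp1 UMI was found in 37 of 64 and 144 of 286 En1/2 CKO members and in 56 of 104 and 30 of 65 control members. Members with 10 or more Spp1 UMIs made up 18.8% and 11.9% in En1/2 CKO and 25% and 21.5% in control, and held 93.6% and 84.3% of all Spp1 UMIs in En1/2 CKO and 94.6% and 90% in control. The limit of 10 was set after the values were seen, and 2, 8, 3 and 2 members lay at 10 to 14 UMIs in En1/2 CKO replicates 1 and 2 and control replicates 1 and 2. En2 lies on that chromosome too, so for Spp1 the deletion and linked DNA cannot be told apart.

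Members with many Spp1 UMIs also held more of several other genes of tract-associated microglia. Cd9, a tetraspanin, had 2387 and 2000 CPM in En1/2 CKO members with 10 or more Spp1 UMIs against 877 and 570 CPM in En1/2 CKO members with none, and 2424 and 1612 CPM against 885 and 860 CPM in controls. Ctsl, a lysosomal protease, had 4486 and 3172 CPM against 1517 and 1340 CPM in En1/2 CKO and 4950 and 4334 CPM against 2203 and 1788 CPM in control. Csf1, a ligand of Csf1r, had 604 and 933 CPM against 89.6 and 124 CPM in En1/2 CKO and 543 and 468 CPM against 116 and 138 CPM in control. All 3 were higher in the Spp1-rich members of every library. So were some genes outside the tract list. Tyrobp, the adaptor of Trem2, had 3746 and 3687 CPM against 3027 and 2352 CPM in En1/2 CKO. In control it had 4604 and 3207 CPM against 3231 and 2224 CPM. Trem2 and Ly86 were also higher in every library, whereas C1qa was not, so the rise was not particular to tract genes. P2ry12 ran the other way, at 1148 and 805 CPM against 1600 and 1241 CPM in En1/2 CKO and 787 and 884 CPM against 1215 and 1330 CPM in control. Apoe, the lipid carrier, and the galectin genes Lgals1 and Lgals3 showed no common direction. Lgals3, at low levels, had 15.1 and 41.4 CPM against 96 and 10.5 CPM in En1/2 CKO. In control it had 15.7 and 0 CPM against 32.3 and 11.5 CPM. The Spp1 groups used all members and were not formed again for those with 10 or more marker UMIs. The groups were formed on the same cells, and deeper cells reach 10 UMIs more easily, with median depth in the Spp1-rich members of 5280 and 6268 UMIs against 4308 and 2069 UMIs in En1/2 CKO and 4620 and 3519 UMIs against 2134 and 2672 UMIs in control, so no test was made.

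**Figure D3:**
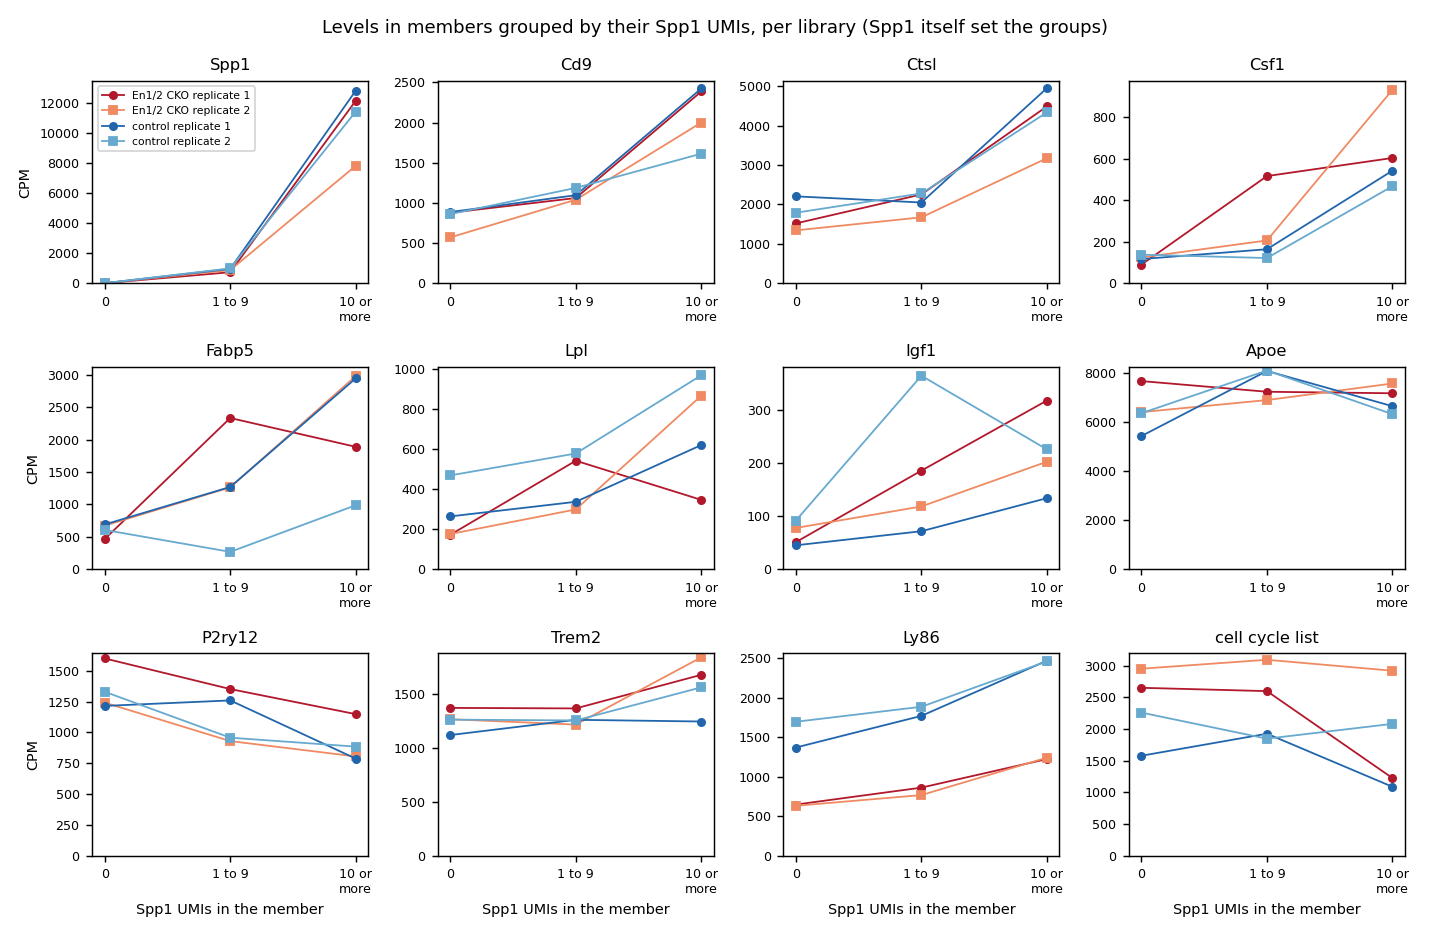
CPM (y axis) of 11 genes and of the summed cell cycle list in members with 0, 1 to 9 and 10 or more Spp1 UMIs (x axis), with a line per library. Cd9, Ctsl and Csf1 are higher at 10 or more than at 0 in each library and P2ry12 is lower, while Ly86 is lower in both En1/2 CKO libraries than in both controls at each Spp1 level.

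A few members carried a border macrophage programme. Counting 7 genes of such cells (Mrc1, Pf4, Lyve1, F13a1, Ms4a7, Cbr2 and Cd163), 2 of 64 and 3 of 286 En1/2 CKO members held 5 or 6 of them, whereas no other member held more than 2. In control members 0 of 104 and 0 of 65 did, with exact binomial 95% intervals of 0% to 3.48% and 0% to 5.52%. The shares in En1/2 CKO were 3.12% (exact binomial 95% interval 0.381% to 10.8%) and 1.05% (0.217% to 3.03%). These intervals overlap, cover counting within a library only and do not measure the spread between pools. No genotype difference can be read from them. No barcode outside the members, kept or not, held 4 or more of the 7 genes. The minimum of 4 was set after the counts were seen, and no test was made.

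The 5 cells had 32415 UMIs in all and differed from the other 345 En1/2 CKO members in genes the count of 7 did not use, picked after their values were seen. Pf4, the chemokine platelet factor 4 and part of that count, had 7867 CPM in the 5 cells and 1.51 CPM in the other En1/2 CKO members, so that 255 of 257 Pf4 UMIs came from 5 cells. Ccl24, the chemokine eotaxin-2, had 1635 CPM in the 5 cells and 11.3 CPM in the others. Hmox1, heme oxygenase, was at 3887 CPM in the 5 cells and 208 CPM in the others, with Blvrb, a biliverdin reductase, at 740 CPM in the 5 cells and 56 CPM in the others, and Slc40a1, the iron exporter ferroportin, at 895 CPM in the 5 cells and 106 CPM in the others. The adaptor Dab2 had 2036 CPM in the 5 cells and 93.8 CPM in the others, and the scavenger receptor Stab1 had 1296 CPM in the 5 cells and 148 CPM in the others.

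Several microglial genes were low in the same cells. P2ry12 had 30.8 CPM in the 5 cells and 1157 CPM in the other En1/2 CKO members, and Sparc had 61.7 CPM in the 5 cells and 2979 CPM in the others. Spp1, Tmem119 and Olfml3 had no UMI in the 5 cells, against 2172, 147 and 263 CPM in the others. Fcrls and Trem2 were retained more, Fcrls at 617 CPM in the 5 cells and 1889 CPM in the others and Trem2 at 524 CPM in the 5 cells and 1402 CPM in the others. The rule's own markers were closer in level, with C1qb at 2838 CPM in the 5 cells and 3447 CPM in the others, Csf1r at 956 CPM in the 5 cells and 1228 CPM in the others, and Cx3cr1, which differed most, at 802 CPM in the 5 cells and 1395 CPM in the others. Maf, a transcription factor of macrophages, had 1481 CPM in the 5 cells and 588 CPM in the others, and Sall1, a zinc finger factor of microglia, had 30.8 CPM in the 5 cells and 157 CPM in the others. TdTom had 9 UMIs in the 5 cells (278 CPM, against 796 CPM in the others).

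**Figure D4:**
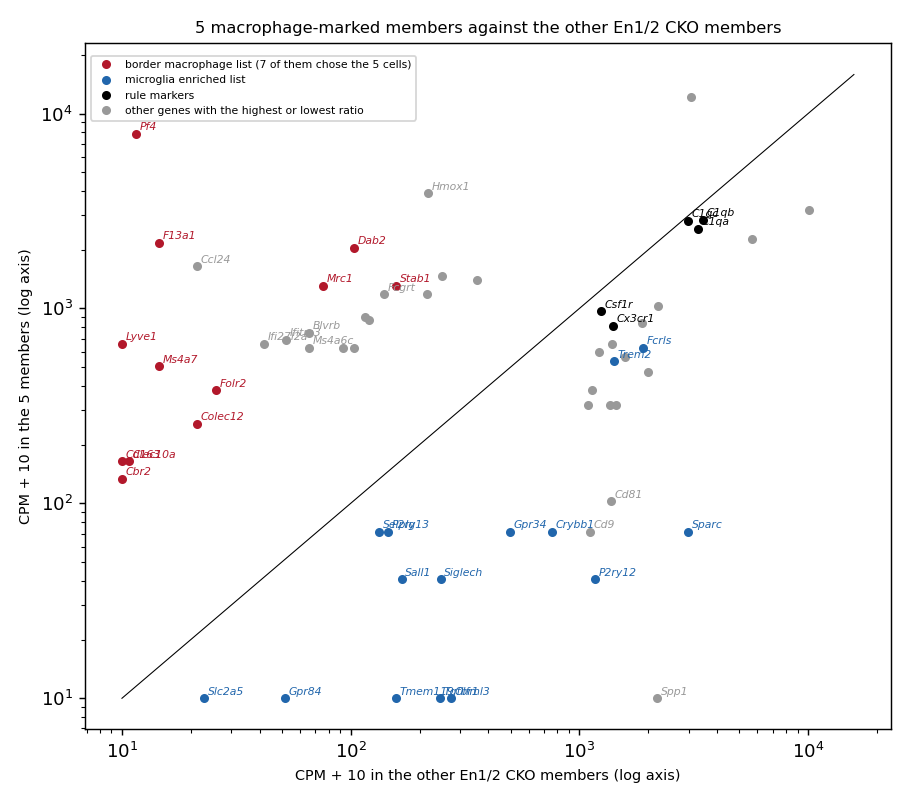
CPM + 10 in the 5 macrophage-marked En1/2 CKO members (y axis, log scale) against CPM + 10 in the other En1/2 CKO members (x axis, log scale), 1 point per gene, with the line of equal values. The rule markers lie near the line, border macrophage genes and Hmox1 and Ccl24 above it, and Sparc, P2ry12 and Spp1 far below it.

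Counted more loosely, as members with 3 or more UMIs over 14 border macrophage genes, the share was 28.1% and 14% in En1/2 CKO and 24% and 21.5% in control. The groups overlapped (difference of means -1.73 percentage points, exact permutation p = 1). In members with 10 or more marker UMIs it was 27% and 23.7% in En1/2 CKO and 26.7% and 22.2% in control. Outside the 5 cells, Stab1, Dab2 and Mrc1 of this list had 196, 124 and 87 UMIs in En1/2 CKO members. Pf4, F13a1 and Lyve1 had 2, 6 and 0 there, so the loose share does not count cells with the programme of the 5. A UMI of Mrc1, the mannose receptor, was present in 14.1% and 14.3% of En1/2 CKO members and 17.3% and 9.23% of control members, and in at most 0.0387% of the other barcodes of any library. Lyve1, a hyaluronan receptor, was found in 2 and 2 En1/2 CKO members and in 0 and 0 control members.

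Member UMIs were then summed per library and compared between genotypes with edgeR's quasi-likelihood test, Benjamini-Hochberg adjusted over the 5243 genes tested. No gene passed an adjusted p of 0.05 in either direction, a share of 0%. At an unadjusted p under 0.05 there were 59 genes higher and 50 lower in En1/2 CKO, 1.13% and 0.954% of those tested, and DESeq2 called 1 gene, Pf4. Log2 fold changes were positive for 49.5% of genes. Both mutant libraries lay above both controls for 843 genes (16.1%) and below both for 571 (10.9%). Counts were simulated at the observed trend of spread, with changes placed only in genes with higher counts. There the test recovered 89% of 4-fold and 12% of 2-fold changes, with 7 false calls, so 2-fold differences were mostly out of reach. Scatter of single genes around that trend was not simulated, so recovery in the data may be lower. Egr2 and Tmem14c had observed log2 fold changes of 2.24 and -2.12 and did not pass (edgeR adjusted p = 0.9996). The lack of calls therefore does not show that 4-fold changes were absent. Recovery in genes with fewer counts was not simulated. Bulk sums cannot tell fewer cells of a kind from less RNA per cell.

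Ly86 had the smallest p among the lower genes. It lies on chromosome 13 (chr13:37345208-37419036) and had 829 and 804 CPM in En1/2 CKO members and 1842 and 1962 CPM in control members, so the libraries of a genotype differed little and the genotypes did not overlap. The log2 fold change was -1.26 (SE 0.29, edgeR adjusted p = 0.9996). It stayed between -1.34 and -1.18 over 15 other settings and passed when control replicate 1 or control replicate 2 was left out (adjusted p = 0.0126 and 0.000985, with a range over the 15 settings up to 1). Outside the members Ly86 was at 0.167 and 1.44 CPM in En1/2 CKO and 0.892 and 1.44 CPM in control. In members without a Spp1 UMI it had 646 and 631 CPM in En1/2 CKO and 1370 and 1696 CPM in control, and in those with 10 or more 1224 and 1241 CPM in En1/2 CKO and 2471 and 2462 CPM in control.

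F13a1 and Tmem14c, also among the 10 smallest p in their direction, lie on chromosome 13 with Ly86, which holds neither En1 nor En2. Tmem14c was lower in En1/2 CKO like Ly86, whereas F13a1 was higher. F13a1 had 70 UMIs in the 5 macrophage-marked cells and 6 in the other En1/2 CKO members. The strain background of the genotypes is not stated in the labels, and the part of linked DNA in these values was not tested. Further lower genes by p did not pass either. Tmem14c, a mitochondrial membrane protein of heme synthesis on the same chromosome (chr13:41016292-41022586), had 50.4 and 31.2 CPM in En1/2 CKO members and 240 and 77.6 CPM in control members. Its log2 fold change was -2.12 (SE 0.52) in members and -1.53 in the other kept barcodes. Rab3gap1, a regulator of Rab GTPases on chromosome 1, had 50.4 and 49.2 CPM in En1/2 CKO members and 119 and 137 CPM in control members. Apobec3, a cytidine deaminase of antiviral defence, had 10.1 and 22.7 CPM in En1/2 CKO and 47.4 and 77.6 CPM in control. The genotypes did not overlap for Rab3gap1 and Apobec3, and Rab3gap1 shares its chromosome with En1, so that linked DNA and the deletion cannot be told apart. Gm12166, Dcun1d1, E230029C05Rik, Phpt1 and Lpar6 were further genes among the 10 with the smallest p, with log2 fold changes between -2.38 and -1.15.

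Among the higher genes, Pf4 (chr5:90772435-90773383) and F13a1, the A subunit of coagulation factor XIII (chr13:36867178-37050244), led. Pf4 had 410 and 128 CPM in En1/2 CKO members and 7.91 and 0 CPM in control members (edgeR adjusted p = 0.511, log2 fold change 5.62, SE 0.89). F13a1 had 101 and 43.5 CPM in En1/2 CKO and 10.5 and 0 CPM in control. Without the 5 macrophage-marked cells neither gene had enough counts to be tested, so the values in En1/2 CKO rest on those cells. Pf4 also shares its chromosome with En2. Ccl24 had 53 UMIs in the 5 cells and 15 in the other En1/2 CKO members, with 97.3 and 36.9 CPM in En1/2 CKO and 2.63 and 27.4 CPM in control. Egr2, a zinc finger transcription factor, had 67.1 and 37.9 CPM in En1/2 CKO and 10.5 and 9.13 CPM in control, and Lgals1, galectin-1, had 342 and 249 CPM in En1/2 CKO and 161 and 50.2 CPM in control. Gm10076 had 292 and 874 CPM in En1/2 CKO members and 161 and 123 CPM in control members, and moved likewise in the other barcodes (log2 fold change 2.00 in members and 2.47 outside). Vars, valyl-tRNA synthetase, had 73.8 and 71 CPM in En1/2 CKO and 34.3 and 22.8 CPM in control.

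The remaining 4 of the 10 higher genes belong to the cell cycle. Mki67, the Ki-67 antigen, had 201 and 183 CPM in En1/2 CKO members and 71.1 and 82.1 CPM in control members, with a log2 fold change of 1.29 (SE 0.35, edgeR adjusted p = 0.9996). Cenpf, a kinetochore protein, had 87.3 and 126 CPM in En1/2 CKO and 47.4 and 31.9 CPM in control, and lies on chromosome 1 with En1. Cdc20, an activator of the anaphase-promoting complex, had 36.9 and 45.4 CPM in En1/2 CKO and 10.5 and 9.13 CPM in control. Hist1h1b, a linker histone, had 73.8 and 96.5 CPM in En1/2 CKO and 42.2 and 22.8 CPM in control. The genotypes did not overlap for any of these genes.

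Of 24 tested genes of a cell cycle list, 21 had positive and 3 negative log2 fold changes, with a median of 0.58 against -0.01 over all genes tested, and 0 of 24 passed. Both mutant libraries lay above both controls for 14 of them, where 16.1% of all tested genes did. The direction was clearest in genes of G2 and mitosis, 16 of 16 positive with a median of 0.79, whereas S phase genes gave 5 of 8 positive with a median of 0.14. This split by phase was made after the values were seen. Hmgb2, a chromatin protein, had 363 and 428 CPM in En1/2 CKO members and 121 and 278 CPM in control members, and Top2a, the mitotic topoisomerase, had 205 and 212 CPM in En1/2 CKO and 73.8 and 155 CPM in control. Pcna, the replication clamp, had 101 and 142 CPM in En1/2 CKO and 97.5 and 183 CPM in control.

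The G2 and mitosis genes summed to 1766 and 2092 CPM in En1/2 CKO members and 893 and 1255 CPM in control members. In the other kept barcodes they summed to 2129 and 2450 CPM in En1/2 CKO and 1086 and 2945 CPM in control, with no order by genotype. Free RNA of dividing progenitors could reach the members, and its part was not tested. In members with 10 or more marker UMIs all 16 genes remained positive with a median of 0.81. Progenitor and glial genes still summed to 565 and 1722 CPM there in En1/2 CKO and 956 and 548 CPM in control. When members with 3 or more border macrophage UMIs were removed, 10 of 13 tested genes were positive with a median of 0.47, and without En1/2 CKO replicate 2 it was 13 of 16.

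**Figure D5:**
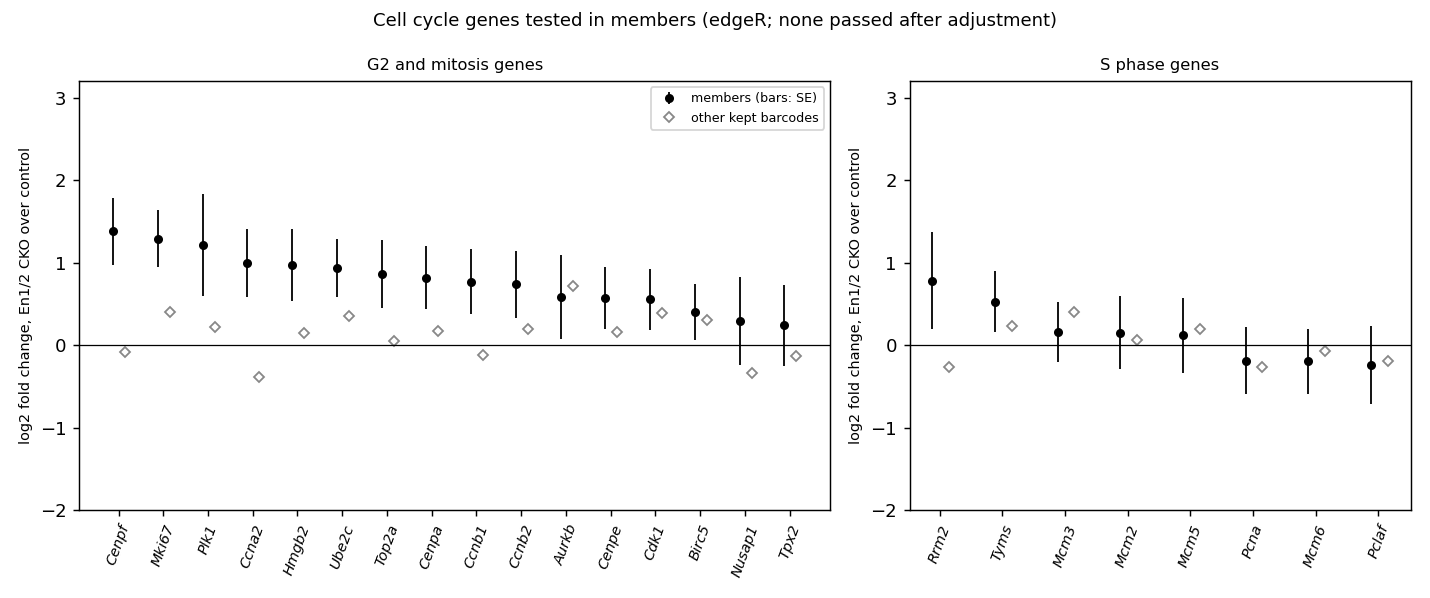
Log2 fold change of En1/2 CKO over control (y axis) for each cell cycle gene tested in members (filled points, bars are SE) and in the other kept barcodes (open diamonds). All 16 genes of G2 and mitosis lie above 0 in members, and none passed after adjustment. In the other barcodes the values lie on both sides of 0.

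The share of members with 5 or more cell cycle UMIs was 31.2% and 40.2% in En1/2 CKO and 27.9% and 24.6% in control. Both mutant values lay above both controls, by 9.48 percentage points on average (exact permutation p = 0.33, the smallest that 2 against 2 libraries can give), and the exact binomial intervals of the libraries overlapped in part, at 20.2% to 44.1% and 34.5% to 46.1% in En1/2 CKO and 19.5% to 37.5% and 14.8% to 36.9% in control. With every member thinned to 2000 UMIs, which left out 9 and 127 shallower En1/2 CKO members and 33 and 12 shallower control members, the shares were 23.6% and 37.1% in En1/2 CKO and 18.3% and 20.8% in control. The other kept barcodes, thinned alike, gave 24.4% and 31.9% in En1/2 CKO and 24.8% and 37% in control. A UMI of these genes can come from free RNA, so the share is not a count of dividing cells.

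The remaining lists are given by their counts, and 0 genes of any passed. Of 15 myeloid core genes 5 were positive and 10 negative (median -0.15). Its leading members are Tyrobp, the signalling adaptor of Trem2, with 3162 and 2763 CPM in En1/2 CKO and 3852 and 2556 CPM in control, and Fcer1g, an adaptor of Fc receptors, with 2742 and 2389 CPM in En1/2 CKO and 3399 and 2204 CPM in control. Of 15 microglia-enriched genes 8 were positive and 7 negative (median 0.04). Of 16 lineage regulators 5 were positive and 11 negative (median -0.18), but without control replicate 2 there were 12 positive and 4 negative (median 0.39) and without En1/2 CKO replicate 2 there were 10 positive and 6 negative (median 0.09). Spi1 had 450 and 386 CPM in En1/2 CKO members and 501 and 306 CPM in control members, and Mef2c, a transcription factor of microglia, had 1245 and 1177 CPM in En1/2 CKO and 928 and 1743 CPM in control. The genotypes overlapped for these 4 genes.

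Several regulators and receptors differed more between the control libraries than between genotypes. Sall1 had 211 and 138 CPM in En1/2 CKO members and 65.9 and 347 CPM in control members. Gpr34 had 634 and 433 CPM in En1/2 CKO and 387 and 1447 CPM in control. Maf had 937 and 517 CPM in En1/2 CKO and 448 and 1310 CPM in control, and Cx3cr1, the fractalkine receptor and a rule gene, had 1762 and 1274 CPM in En1/2 CKO and 1007 and 2556 CPM in control. In each case both mutant values lay between the controls, with control replicate 2 highest. Members of control replicate 2 also had the highest median mitochondrial share of UMIs, 6.04% against 1.87% in control replicate 1. In En1/2 CKO members it was 2.91% and 2.79%. The part of cell quality in these values was not tested. The common biological coefficient of variation estimated by edgeR was 0.193 between the En1/2 CKO libraries and 0.326 between the control libraries.

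Lysosomal genes were the most abundant list, summing to 35787 and 28677 CPM in En1/2 CKO members and 36131 and 32844 CPM in control members. Of 21 tested, 6 were positive and 15 negative (median -0.06). Ctsb, cathepsin B, had 6757 and 5187 CPM in En1/2 CKO and 9033 and 6211 CPM in control, and Ctsd, cathepsin D, had 6002 and 5465 CPM in En1/2 CKO and 4938 and 5704 CPM in control. Of 12 genes of tract-associated microglia 5 were positive and 7 negative (median -0.04). Apoe had 7435 and 6802 CPM in En1/2 CKO members and 6508 and 6927 CPM in control members, and Lpl, lipoprotein lipase, had 305 and 362 CPM in En1/2 CKO and 403 and 639 CPM in control. Lpl was below both controls in both mutants, and Apoe overlapped.

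Of 21 receptor genes of TGF-beta, purine and cytokine signalling, 4 were positive and 17 negative (median -0.38), against 50.5% negative over all genes tested. Tgfbr1, a receptor through which TGF-beta maintains microglia, had 235 and 229 CPM in En1/2 CKO members and 182 and 424 CPM in control members. P2ry6, a UDP receptor of phagocytosis, had 305 and 233 CPM in En1/2 CKO and 319 and 205 CPM in control. Both mutant libraries lay below both controls for 4 of the 21, where 10.9% of all tested genes did. They lay above both for 1, where 16.1% of all tested genes did. The lean rested on single libraries: without control replicate 2 there were 11 positive and 11 negative (median -0.04), and without En1/2 CKO replicate 2 there were 9 positive and 12 negative (median -0.04). With members of 10 or more marker UMIs the count was 7 positive and 14 negative (median -0.31).

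Of 5 tested complement genes 1 was positive and 4 were negative (median -0.35), but without control replicate 2 there were 4 positive and 2 negative (median 0.25), and without control replicate 1 there were 0 positive and 6 negative (median -1.05). C3ar1, the receptor for C3a, had 232 and 230 CPM in En1/2 CKO and 274 and 461 CPM in control, and C5ar1, the receptor for C5a, had 47 and 18 CPM in En1/2 CKO and 60.6 and 95.8 CPM in control. Both were lower in both mutant libraries, with log2 fold changes of -0.71 (SE 0.37) and -1.49 (SE 0.53). The complement component C3 had 1 UMI in En1/2 CKO replicate 2, 1 in control replicate 1 and none in the other libraries. Of 14 phagocytic receptor genes 6 were positive and 8 negative (median -0.03), and Mertk, a receptor for apoptotic cells, had 148 and 113 CPM in En1/2 CKO and 73.8 and 219 CPM in control.

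Of 10 tested chemokine and cytokine genes 7 were positive and 3 negative (median 0.29), among them Pf4 and Ccl24 with the UMIs of the 5 cells. Ccl3, a chemokine of the MIP-1 family, had 1034 and 737 CPM in En1/2 CKO members and 714 and 726 CPM in control members. Ccl4, of the same family, had 953 and 500 CPM in En1/2 CKO and 814 and 292 CPM in control, and Ccl6 had 148 and 132 CPM in En1/2 CKO and 174 and 461 CPM in control. The genotypes did not overlap for Ccl3 and Ccl6 and did for Ccl4. Il6 and Il10 were at 0 in all members, and Tnf and Il1b did not exceed 18.9 CPM in any library.

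Of 13 lipid and iron genes 6 were positive and 7 negative (median -0.19), of 18 immediate early and NF-kappaB response genes 9 were positive and 9 negative (median 0.02), and of 12 BCL2 and p53 genes 10 were positive and 2 negative (median 0.15). Ftl1, the ferritin light chain, had 11792 and 9983 CPM in En1/2 CKO and 17138 and 7694 CPM in control. Fos, a transcription factor that dissociation can induce, had 436 and 220 CPM in En1/2 CKO and 316 and 479 CPM in control. Btg2, an antiproliferative gene on chromosome 1, had 117 and 127 CPM in En1/2 CKO and 71.1 and 50.2 CPM in control. The genotypes overlapped for Ftl1 and Fos. Of 4 tested interferon response genes 1 was positive and 3 were negative (median -0.28), of 5 growth factor genes 2 were positive and 3 negative (median -0.01), and the 3 tested antigen presentation genes were all negative (median -0.13).

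Leaving out 1 library turned the sign of the median of most other lists too. Without control replicate 2 it was 0.20 for lipid and iron genes, 0.22 for phagocytic receptors, 0.21 for growth factors and -0.14 for chemokines and cytokines. Without En1/2 CKO replicate 2 it was 0.12 for lysosomal genes, 0.11 for the myeloid core, 0.08 for tract-associated genes, 0.67 for interferon response genes and -0.86 for neuronal genes, and without control replicate 1 it was 2.48 for interferon response genes. Without En1/2 CKO replicate 1 it was -0.21 for microglia-enriched genes and -0.29 for immediate early and NF-kappaB genes. The direction of these lists therefore depends on which libraries are used. With each library left out in turn, the medians of the cell cycle list and of its G2 and mitosis genes stayed positive. That of the BCL2 and p53 list did too, and that of the antigen presentation list stayed negative. The receptor median also stayed negative, but was only -0.04 without control replicate 2 and -0.04 without En1/2 CKO replicate 2.

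Genes of other cells differed between libraries. Of 10 neuronal genes 5 were positive and 5 negative (median 0.03), and all 7 tested progenitor and glial genes were positive (median 1.06). Fabp7, a radial glial lipid-binding protein, had 269 and 1515 CPM in En1/2 CKO members and 458 and 424 CPM in control members, so that En1/2 CKO replicate 2 alone was high. In members with 10 or more marker UMIs the median of the 6 tested was 0.90, but without En1/2 CKO replicate 2 only 1 of 5 tested was positive (median -0.74). Erythroid genes summed to 571 and 596 CPM in En1/2 CKO members and 659 and 123 CPM in control members. In the other barcodes they were at 1846 and 1649 CPM in En1/2 CKO and 5741 and 52.6 CPM in control. Choroid plexus genes reached 13106 and 4160 CPM in the other En1/2 CKO barcodes and 15.7 and 11.9 CPM in the other control barcodes, but only 23.5 and 19.9 CPM in En1/2 CKO members and 0 and 0 CPM in control members.

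Whether a gene differed by genotype in members otherwise than in the rest of the sorted cells was tested as an interaction over 12024 genes. It called 2 genes in the positive direction (0.0166%) and 3 in the negative (0.025%), which were Pf4 and Spry2, and Cd74, Dqx1 and Hfe. DESeq2 called 0, with 87 genes at an unadjusted p under 0.05, against 359 with edgeR. Ly86 gave -0.65 and Mki67 0.89 on the log2 scale, and neither passed (edgeR adjusted p = 1).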

How the data were processed

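Per the labels' protocols, cerebella were dissociated with Accutase, tdTomato-positive cells were sorted and 10x 3′ libraries were made. The authors deposited raw, not normalised UMI counts for each gene in each barcode, made with Cell Ranger 6.1.0 against mm10 per the submitters' processing notes. Barcodes and 32286 gene identifiers were deposited as text. Whether intron reads were counted is not given in the sources used here.

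Members were chosen by the rule in the report, and members and gene lists were chosen with earlier results of these data known. Member UMIs were summed per library. CPM are per 1000000 member UMIs, not per gene length. Sums were tested with edgeR 4.0.16 in R 4.3.3 (TMM, filterByExpr, quasi-likelihood F test, Benjamini-Hochberg, threshold 0.05, rule markers left out), and SE were derived from the F statistic. The difference from the rest of each library was the genotype by population interaction, blocked by library. Shares were compared by exact permutation of libraries with exact Clopper-Pearson 95% intervals. Intervals and the floor of 3 counts cover counting error only. Named were, per list, the 6 most abundant genes or fewer, the 25 leading ratios, and per test and direction the genes passed, or up to 10 by p. Other genes were named after their values were seen. Doublets were scored with Scrublet in Scanpy 1.11.5 and kept. The labels share replicate numbers but do not say what a number stands for. Alternatives were RLE size factors, DESeq2 1.42.0, no low-count filter, other UMI and gene minimums, doublets removed, thinning, members without border macrophage UMIs, a replicate block and each library left out. A crossed block, removal of the 5 macrophage-marked cells and shares at 10 marker UMIs were added after the data were seen. The test was tried on simulated counts. Gene coordinates are mm10 and promoters RefSeq GRCm38.p6. Floxed En1 is on chromosome 1 and floxed En2 on chromosome 5. Results for some genes are not reported here.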

Additional observations from a re-analysis of the deposited data

Results flagged for a closer look

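The 5 results below were selected because the genotype difference in members differed from that in the other kept barcodes by the interaction test. Differences are log2 fold change in members minus that in the rest (edgeR, adjusted over 12024 genes).

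Pf4 gave 5.72 (adjusted p = 5.92e-05). It had 122 and 135 UMIs in En1/2 CKO members and 3 and 0 in control members, and 255 of the En1/2 CKO UMIs came from 5 cells. Spry2, an inhibitor of receptor tyrosine kinase signalling, gave 11.18 (adjusted p = 0.0138) with 1 and 29 UMIs in En1/2 CKO members and 0 and 0 in control members, while the other barcodes had 31.9 and 35.7 CPM in En1/2 CKO and 13.9 and 133 CPM in control. With members of 10 or more marker UMIs Spry2 did not pass (adjusted p = 1), and of its 7 alternatives it was called in 1, that without the low-count filter, with adjusted p between 0.0261 and 1. At 10 or more marker UMIs the other 4 genes still passed, with adjusted p of 5.12e-09 for Pf4, 0.000244 for Cd74, 0.00383 for Dqx1 and 0.00825 for Hfe. Over the same alternatives Pf4 and Cd74 were called in 4, and Dqx1 and Hfe in 3, with adjusted p up to 1. Cd74, the class II invariant chain, gave -6.29 (adjusted p = 0.00269) with 1 and 8 UMIs in En1/2 CKO members and 18 and 4 in control members, and its rest value rested on 6.84 CPM in En1/2 CKO replicate 1. Dqx1 gave -3.33 (adjusted p = 0.0032) with 0 and 7 UMIs in En1/2 CKO members and 1 and 58 in control members, so 1 library carried it. Hfe, a regulator of iron uptake, gave -4.99 (adjusted p = 0.0137) with 6 and 29 UMIs in En1/2 CKO members and 15 and 7 in control members, and with 5.56 and 2.13 CPM in the other En1/2 CKO barcodes and 0 and 0.72 CPM in the other control barcodes. Fitted sizes for genes at or near 0 in a group depend on the prior count and are no bound.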

How the results depend on the processing

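The count of genes called in members was 0 and became 6 without the low-count filter, 1 with DESeq2, 1 with the replicate block, 4 with the crossed block, and 2 to 38 with 1 library left out (25 without control replicate 1, 38 without control replicate 2, 2 without En1/2 CKO replicate 1 and 3 without En1/2 CKO replicate 2). A lone library was then assumed to vary like the other group, whose spread was smaller in En1/2 CKO. Pf4 was the gene called by DESeq2 and by the block. Same-numbered libraries correlated at -0.24 in their deviations. With 2 libraries per genotype this is 1 value, so it cannot decide whether a replicate number marks a shared batch. The 5 interaction calls became 0 with DESeq2 and 0 to 16 with 1 library left out (1 without control replicate 1, 16 without control replicate 2, 0 without En1/2 CKO replicate 1 and 2 without En1/2 CKO replicate 2). With 1 library left out the interaction of Dqx1 ranged from -11.10 to 1.80, and the log2 fold changes in members ranged from -0.83 to 0.67 for TdTom and from -1.34 to 1.07 for Xist, the positive value being that without control replicate 2 each time. The share of members (En1/2 CKO minus control, -0.87 points) was 0.32 without the barcode filter and ranged from -3.13 to 1.39 with 1 library left out (1.39 without control replicate 2, 0.30 without En1/2 CKO replicate 1). The loose border macrophage share (-1.73 points) was 5.84 at 5 UMIs, 0.88 at 10 marker UMIs, 1.53 after thinning and ranged from -8.80 to 5.34 with 1 library left out (-8.80 without En1/2 CKO replicate 1 and 5.34 without En1/2 CKO replicate 2). The cell cycle share kept its direction in the settings tried, from 5.00 to 13.96 points. S phase genes gave 1 of 8 positive without En1/2 CKO replicate 2. With 519 cells and 2 pools per genotype, 2-fold changes were mostly out of reach.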

Other observations

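Interferon response UMIs were concentrated in few members: 5 and 5 En1/2 CKO members and 7 and 2 control members held 5 or more of them, and these carried 76.8% and 34.6% of the list's UMIs in En1/2 CKO and 72.2% and 46.3% in control. In En1/2 CKO replicate 1 a member with 3 marker UMIs held 82 of 168, together with 6 UMIs of F13a1 and 2 of Ccr2, the chemokine receptor of monocytes. Ifitm3, an antiviral membrane protein, had 161 and 28.4 CPM in En1/2 CKO members and 153 and 13.7 CPM in control members, so that replicate 1 was the higher library in both genotypes.

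Members with 5 or more cell cycle UMIs had lower summed CPM of the myeloid core than those with under 5, at 11164 and 9850 CPM against 14788 and 11661 CPM in En1/2 CKO and 12045 and 11015 CPM against 15084 and 11726 CPM in control. Their median depth was 5556 and 4002 UMIs against 3839 and 1726 UMIs in En1/2 CKO and 5565 and 3907 UMIs against 2760 and 3128 UMIs in control.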
